A study of Mus musculus with 10 samples.

Results

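The genes of the Wnt pathway were examined in chromatin profiles of mouse primary cardiac fibroblasts. Members were the regions of 5 deposited tables that the authors had assigned to a Wnt ligand, a Frizzled receptor, Lrp5 or Lrp6, an Sfrp or Dkk inhibitor, Axin1 or Axin2, or one of Tcf7, Tcf7l1, Tcf7l2 and Lef1. They numbered 944 of 340994 regions and belonged to 45 genes, namely 19 ligands, 12 receptors, 8 secreted inhibitors, 2 scaffolds and 4 nuclear factors. Regions were assigned by the authors to the gene with the nearest start site, and a region far from its gene may lie within or closer to other transcribed sequence. The profiles were made by CUT&Tag, in which an antibody tethers a transposase to chromatin and the released fragments are sequenced. The libraries of the TGF group came from fibroblasts given TGF-β, and those of the siHK1 group from fibroblasts given an siRNA against Hk1, which encodes a hexokinase of the first step of glycolysis, and then TGF-β. Both groups were profiled with antibodies to histone H3 lactylated at lysine 9 (H3K9lc), JUN, SMAD3 and NFATC2. With H3K9lc, the TGF library was also set against one labelled NC, for control, whose antibody is given only through the name of its table. Whether the NC cells received an siRNA or any other treatment is not stated by that label. The labels give neither strain, age and sex of the mice, nor dose and time of TGF-β, nor a control siRNA for the TGF group. With 1 library per condition and antibody there was no replicate spread and no test between conditions, so each statement compares libraries and each interval covers counting error alone.

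Wnt ligands are secreted proteins that bind Frizzled receptors, in the canonical branch together with the co-receptors Lrp5 and Lrp6. Without ligand, Axin holds the complex in which β-catenin is marked for destruction. With ligand, β-catenin persists and joins Tcf and Lef proteins on DNA, whereas Sfrp proteins bind ligands and Dkk proteins occupy the co-receptors outside the cell. The pathway is active in the activation of cardiac fibroblasts after injury, and TGF-β is known to act with it in fibrosis.

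The libraries set the precision of what follows. Reads over all listed regions were most numerous with the JUN antibody, at 4215447 in the TGF library and 2271336 in the siHK1 library. The H3K9lc libraries held 2490853 and 1419023, those of NFATC2 575706 and 354599 and those of SMAD3 563562 and 399897, while the NC library held 115572. The median member region held 31 and 15 JUN reads but 4 and 3 SMAD3 reads and 3 and 2 NFATC2 reads. Fibroblast identity was read from JUN regions at promoters: all 8 fibroblast markers had such a region (959 and 506 reads in all), against 1 of 5 cardiomyocyte markers (84 and 38 reads, at Myh6), 3 of 4 endothelial markers (132 and 65), 2 of 4 macrophage markers (270 and 151) and 0 of 3 markers of smooth muscle and pericytes. The level of a region is the deposited log2 value, and a log2 ratio is the siHK1 level minus the TGF level. A region was called lower or higher when that ratio reached 1 (2-fold) and the exact (Clopper-Pearson) 95% interval of its reads excluded the share that no change gives.

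Member regions were unevenly spread over the family. For JUN, 41 genes had 288 regions, and Tcf7l2, the β-catenin partner with the longest list, had 42 of them, followed by Fzd8 with 18, Fzd1 with 16 and Sfrp1 with 14. For H3K9lc, 31 genes had 145 regions, led by Axin2 with 17, Fzd8 with 16, Tcf7l2 with 14 and Fzd1 with 12. SMAD3 had 181 regions in 40 genes and NFATC2 209 in 39. In all, 27 genes had regions of all 4 antibodies, while Wnt6 had a single NFATC2 region of 1 and 2 reads, and Fzd4 and Sfrp4 had JUN regions alone. A smaller share of member regions than of all regions lay at promoters: 13.9% of the JUN member regions were at promoters against 25.6% of all JUN regions, with 11.6% against 18.9% for SMAD3, 9.57% against 17.0% for NFATC2 and 4.83% against 6.78% for H3K9lc. Distal intergenic regions made up 51.0% of the JUN members and 32.9% of all JUN regions. Regions beyond 100 kb of a start site were 19.8% of the JUN members against 12.5% of all, but 25.5% against 34.8% for H3K9lc, 14.4% against 20.5% for SMAD3 and 21.1% against 22.2% for NFATC2. The H3K9lc members also held less repeat sequence, with a median of 29.1% soft-masked bases (bases the reference marks as repeats) against 61.2% in all H3K9lc regions.

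**Figure D1:**
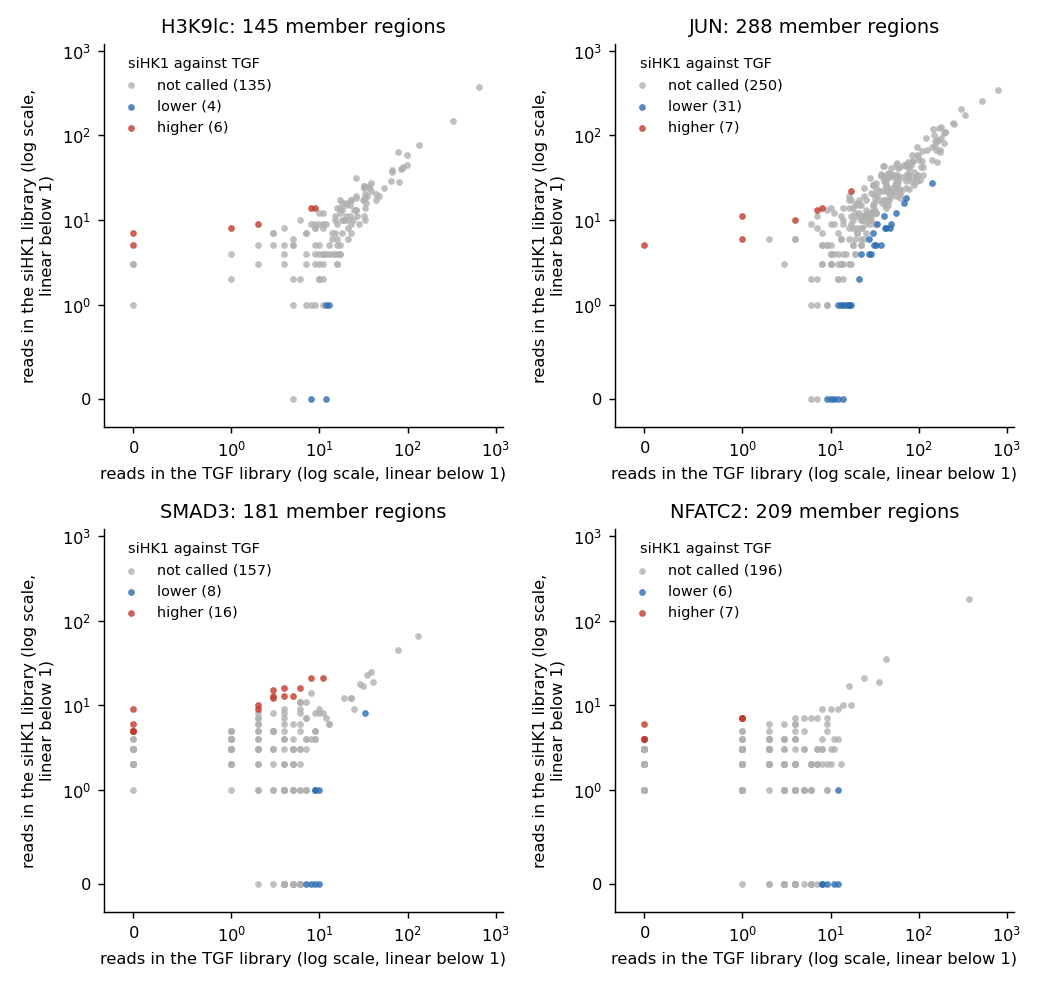
Reads of each member region in the TGF library (horizontal, log scale, linear below 1) and the siHK1 library (vertical, same scale) for the 4 antibodies, with grey points not called, blue called lower and red called higher. JUN regions reach 783 reads in the TGF library and carry 31 lower calls, whereas most SMAD3 and NFATC2 regions hold fewer than 20 reads.

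JUN, a subunit of the AP-1 factor that TGF-β signalling engages, gave the most lower calls in the family. Of the 288 member regions, 31 in 18 genes (10.8%) were lower in the siHK1 library, where 7.18% of all 72990 JUN regions were lower. Of the same regions, 7 (2.43%) were higher against 2.84% of all. At equal library totals 26 members were lower, against 5.56% of all regions, and 14 were higher, against 4.0% of all, so the members' higher calls pass from below to above the table's share. In bulk cells a smaller share of cells with JUN at a region and less JUN per cell cannot be told apart. The median ratio was -0.29 for the members and -0.13 for all JUN regions. It was -0.04 and -0.03 above the median level and -0.03 and 0.02 where both libraries carried a peak mark, so the gap narrows there. Among regions with at least 20 reads over both libraries it was -0.20 and -0.11, so a gap remained. Each of these filters depends in part on the siHK1 reads. The lower calls were mostly at regions of low mean level: above the table's median level 4 of 136 members (2.94%) were lower against 3.29% of all, and 0 were higher against 0.888%. That level is the mean of both libraries, so a fall in siHK1 itself lowers it. The filter therefore cannot tell a region of low level from one that fell. Among regions with at least 20 reads over both libraries, 19 of 228 members (8.33%) were lower against 6.98% of all, and 3 (1.32%) were higher against 1.81%. All 288 members were listed with a peak mark in at least 1 of the libraries, and a region marked in a single library was selected where that library is high, which bears on the direction of its call. Of the 31 lower regions, 29 were listed through a peak in the TGF library alone, among 124 members so listed (23.4%, against 16.8% of all such regions). Of the 131 members with a peak in both libraries, 2 were lower (1.53%, against 1.54%) and 0 were higher, against 0.967% of all such regions. Distal intergenic regions held 21 of the 31 lower regions, whatever their peak marks. These were 14.3% of the 147 distal members, against 7.78% of all distal JUN regions. Of 40 promoter regions 2 were lower, against 5.71% of all JUN promoter regions.

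The 4 lower JUN regions above the median level belonged to Wnt5a, Tcf7l2, Wnt4 and Fzd7, and all were distal. The sequences around those of Wnt5a, Tcf7l2 and Fzd7, and of other JUN regions described here, are shown because they hold the letters of the AP-1 site, TGANTCA, in capitals. All are from the forward strand of GRCm38 (mm10).
Wnt5a, chr14:28731363-28731443: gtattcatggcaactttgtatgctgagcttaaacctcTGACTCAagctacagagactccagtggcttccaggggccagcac
Tcf7l2, chr19:56042121-56042201: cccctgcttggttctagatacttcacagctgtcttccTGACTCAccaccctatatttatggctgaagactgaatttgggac
Fzd7, chr1:59428906-59428986: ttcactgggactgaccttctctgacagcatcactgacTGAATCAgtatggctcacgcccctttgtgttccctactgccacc
Tcf7l2, chr19:55995750-55995830: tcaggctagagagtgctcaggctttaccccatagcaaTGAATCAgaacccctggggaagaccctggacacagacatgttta
Tcf7l2, chr19:56091692-56091770: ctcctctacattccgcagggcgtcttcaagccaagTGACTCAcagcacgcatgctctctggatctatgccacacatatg
Wnt7b, chr15:85599213-85599308: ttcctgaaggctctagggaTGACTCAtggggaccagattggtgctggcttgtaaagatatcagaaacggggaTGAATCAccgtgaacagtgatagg
Sfrp1, chr8:23516516-23516596: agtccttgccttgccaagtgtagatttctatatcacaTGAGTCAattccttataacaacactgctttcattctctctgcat
Sfrp2, chr3:83740346-83740426: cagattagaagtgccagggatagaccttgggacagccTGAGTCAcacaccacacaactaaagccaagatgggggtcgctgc
In the central 200 bases of a region, read on both strands, these letters occurred in 86 of the 288 JUN members (29.9%) and in 29.2% of all JUN regions. They occurred in 10 of the 31 lower members and in 1 of the 7 higher ones. The letters are thus about as frequent at the family's JUN regions as in the table.

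Among the ligands, 11 of 86 JUN regions in 7 genes were lower and 3 were higher, with a median ratio of -0.50. The table shares to set beside this and the counts of the other roles are 7.18% lower and 2.84% higher. Wnt5a, a ligand of the branches that do not need β-catenin, had 4 lower regions among its 9. The region 219422 bases downstream of its start site (chr14:28730873-28731929) had 140 reads in the TGF library and 27 in the siHK1 library, a ratio of -1.49 (95% interval -2.18 to -0.92). The other 3, at 40693, 75924 and 184779 bases downstream, had 9 and 0, 21 and 2 (-2.35, interval -5.76 to -0.59) and 12 and 0 reads. The remaining Wnt5a regions were not called. Wnt4, a ligand of kidney and gonad development, had 68 and 16 reads at chr4:137306018-137306775, 28529 bases downstream (-1.23, interval -2.16 to -0.47). For Wnt11, another β-catenin independent ligand, 2 of 13 regions were lower, with 40 and 11 reads at 33712 bases upstream (-1.03, interval -2.18 to -0.08) and 22 and 4 reads at 19188 bases downstream (-1.56, interval -3.69 to -0.13). Both Wnt11 regions, like the other lower regions below the median level named here, were chosen after their values were seen.

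Wnt7b carried the JUN member region with the most reads, 783 and 342 at chr15:85598959-85600732, 16486 bases upstream, which was not called (-0.24). A neighbouring Wnt7b region 23202 bases upstream was lower, with 47 and 8 reads (-1.68, interval -3.05 to -0.66). Wnt2, Wnt3 and Wnt9b had 1 lower region each, of 37 and 5, 15 and 1 and 33 and 5 reads (-1.98, -2.63 and -1.83, intervals -3.81 to -0.75, -8.54 to -0.45 and -3.65 to -0.57). The 3 higher ligand regions were shallower. At the promoter of Wnt10a, a ligand of skin and tooth development, JUN reads went from 1 to 11 (3.54, interval 1.44 to 9.65). They went from 4 to 10 in a region classed as intronic 36358 bases upstream of Wnt5b (1.89, interval 0.29 to 4.21) and near Wnt7a from 0 to 5.

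**Figure D2:**
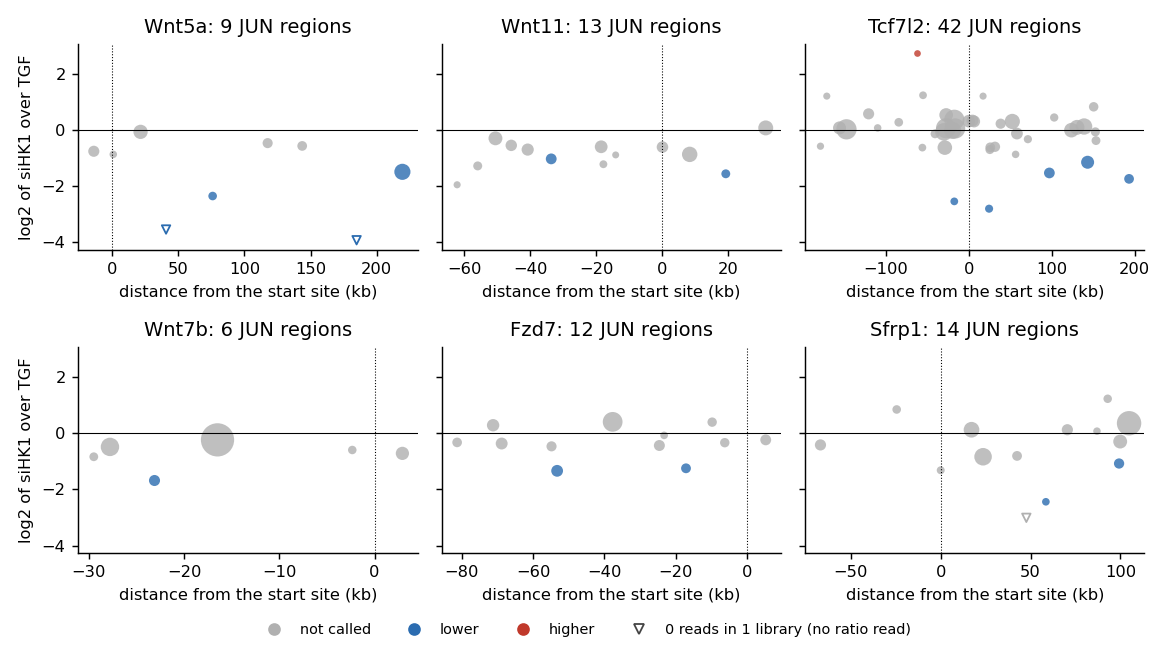
log2 ratio of siHK1 over TGF for each JUN region (vertical) against its distance from the start site of the assigned gene in kb (horizontal) in 6 genes; point area grows with the reads of both libraries and open triangles mark regions with 0 reads in a library, whose ratio is not read. Wnt5a has 4 lower regions of 9, Tcf7l2 5 of 42 with 1 higher, and the deepest Wnt7b and Sfrp1 regions lie near 0.

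Among the receptors, 7 of 81 JUN regions in 5 genes were lower and 2 were higher, with a median ratio of -0.22. Fzd7, a Frizzled receptor, had 55 and 12 reads at chr1:59428680-59429159, 53265 bases upstream (-1.34, interval -2.43 to -0.47), and 30 and 7 reads at 17143 bases upstream (-1.25, interval -2.75 to -0.10). The co-receptor Lrp6 had 2 lower intronic regions, of 41 and 8 reads (-1.50, interval -2.87 to -0.45) and of 12 and 1 reads (-2.33, interval -8.24 to -0.07), beside a deeper region of 177 and 94 reads that was not called (-0.04). Fzd1 went both ways, with 1 region from 10 to 0 reads and 2 higher regions of 17 and 22 (1.11, interval 0.18 to 2.16) and 8 and 14 reads (1.47, interval 0.22 to 3.03). Lrp5, the other co-receptor, had 9 regions and no call.

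Among the secreted inhibitors, 5 of 51 JUN regions were lower and 0 were higher. Sfrp1, which binds Wnt ligands outside the cell, had 34 and 9 reads at chr8:23510711-23510957 (-1.08, interval -2.38 to -0.04) and 13 and 1 reads at 58485 bases downstream (-2.44, interval -8.35 to -0.21). Its deepest region, 104768 bases downstream (chr8:23516270-23516966), held 302 and 205 reads and was not called (0.35). Sfrp4 had 16 and 1 and 27 and 4 reads in 2 lower regions (-2.72 and -1.84, intervals -8.63 to -0.55 and -3.95 to -0.46), and Dkk2 had 29 and 4 reads in 1 (-1.94, interval -4.05 to -0.57). Dkk3, a divergent member of the Dkk group, had 12 regions and no call.

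Among the scaffolds, 1 of 10 JUN regions was lower and 1 was higher, and among the nuclear factors 7 of 60 were lower and 1 was higher. At a promoter of Axin1, the constitutive scaffold, reads were 16 and 1 (-2.72, interval -8.63 to -0.55). Axin2, which β-catenin itself induces and which the study had picked on these samples, had a promoter region of 16 and 19 reads that was not called (0.98) and 1 higher region of 7 and 13 reads at 96273 bases downstream (1.54, interval 0.23 to 3.22). For Tcf7l2, 5 of 42 regions were lower and 1 was higher. They were led by 72 and 18 reads at chr19:56041750-56042389, 143197 bases downstream (-1.15, interval -2.01 to -0.42), 42 and 8 reads at 97131 bases (-1.53, interval -2.90 to -0.49) and 31 and 5 reads at 193139 bases (-1.74, interval -3.57 to -0.48). The deepest Tcf7l2 region, in an intron, had 180 and 126 reads and was not called (0.36). Tcf7l1, mostly a repressor of the same target genes, had 2 lower regions of 11, with 27 and 6 (-1.31, interval -2.96 to -0.09) and 14 and 0 reads. Lef1 and Tcf7 had 4 and 3 JUN regions and no call.

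When the JUN reads of a gene were summed over its regions and both libraries were brought to equal totals, 11 of 41 member genes (26.8%) had an interval below no change, where 11.8% of all 16970 genes had one, and 3 (7.32%) had an interval above, against 10.3%. The member genes were the more deeply covered, with a median of 445 reads over both libraries against 162 for all genes, and the part of that depth in the count was not tested. The sums also draw on regions listed through a peak in a single library, more often TGF (124 of the member regions) than siHK1 (33). Over regions with a peak mark in both libraries alone, 4 of 35 member genes had an interval below no change (11.4%, against 7.59% of all genes), namely Wnt5a, Wnt7b, Wnt11 and Fzd6, and 5 had one above (14.3%, against 12.5%), so most of the genes below are lost. That filter leaves out 29 of the 31 lower regions, which have no peak in siHK1, so the loss is in part set by the filter. Over all regions, the genes below were the ligands Wnt3, Wnt4, Wnt5a, Wnt7b, Wnt9a, Wnt9b and Wnt11, the receptors Fzd6 and Fzd9, Dkk3 and Tcf7l1. Wnt5a had 366 and 109 reads in all (-0.85, interval -1.18 to -0.54), Wnt11 593 and 220 (-0.54, interval -0.77 to -0.31) and Wnt7b 1109 and 453 (-0.40, interval -0.56 to -0.24). These are summed reads, so a few deep regions weigh most in them. The genes above were Wnt7a, with 61 and 64 reads (0.96, interval 0.43 to 1.49), Wnt16, with 195 and 141 (0.43, interval 0.10 to 0.74), and Fzd1, with 554 and 362 (0.28, interval 0.08 to 0.47). Tcf7l2, with 2237 and 1258 reads, had a ratio of 0.06 (interval -0.04 to 0.16).

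**Figure D3:**
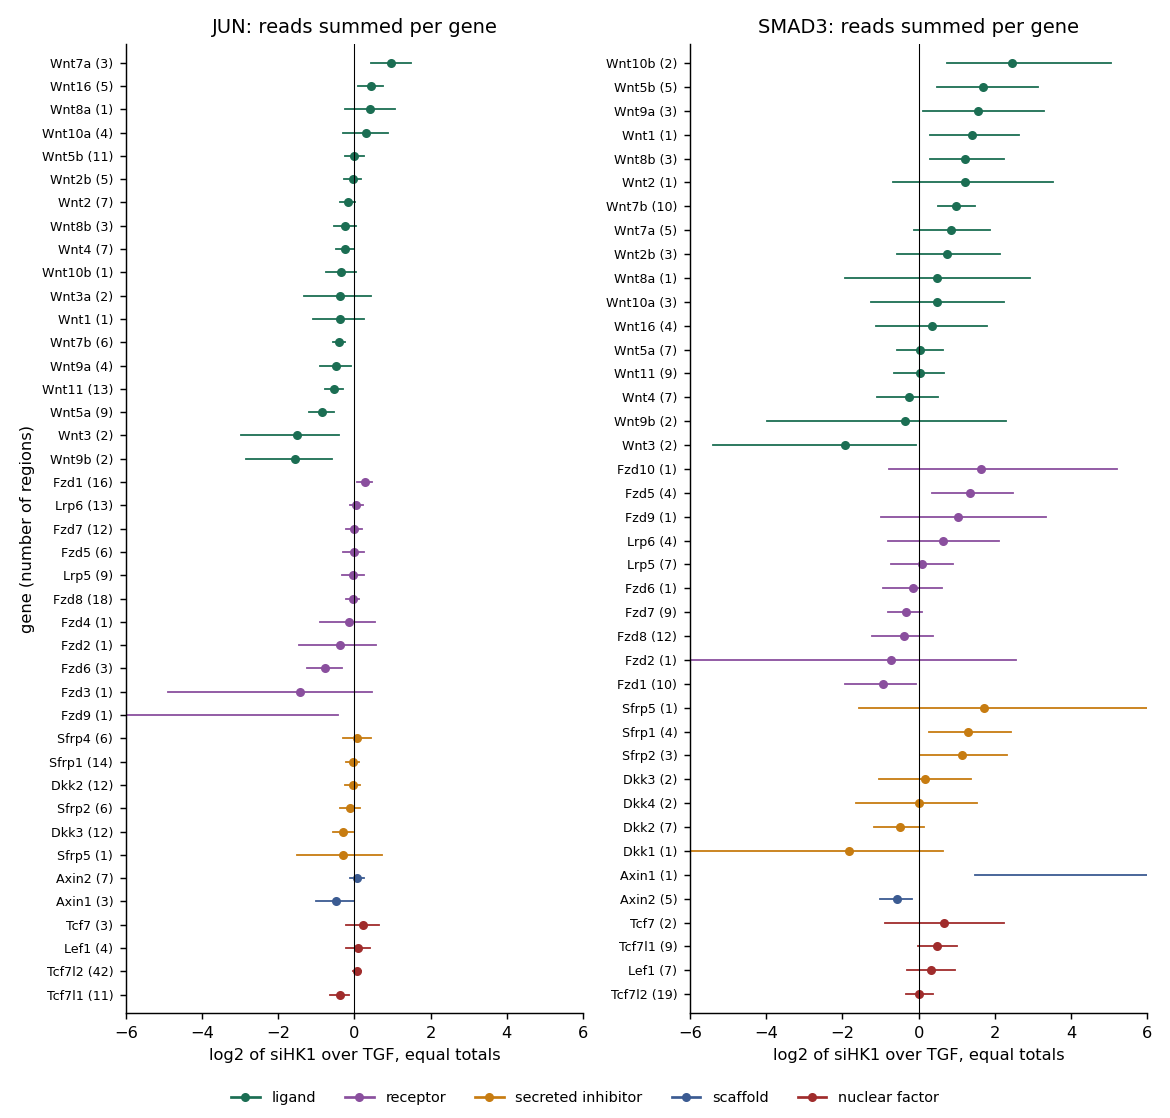
log2 ratio of siHK1 over TGF of reads summed per gene at equal library totals (horizontal) for each member gene (vertical, with its number of regions, coloured by role), for JUN on the left and SMAD3 on the right; bars are exact 95% counting intervals clipped at the axis and no point is drawn where a library has 0 reads. JUN intervals lie below 0 for 11 genes and SMAD3 intervals above 0 for 10.

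SMAD3, the factor that TGF-β receptors phosphorylate, gave more higher than lower calls at the family. Of the 181 member regions, 16 in 14 genes (8.84%) were higher in the siHK1 library, where 5.49% of all 58633 SMAD3 regions were, and 8 (4.42%) were lower against 5.56% of all. At equal totals 17 members were higher, against 7.44% of all regions, and 6 were lower, against 4.59%, so all SMAD3 regions then lean to higher as well. Above the median level, 11 of 93 (11.8%) were higher against 7.84%, and 4 (4.30%) were lower against 5.86%. The median ratio was 0.20 for the members and -0.16 for all SMAD3 regions, but 0.17 and 0.11 above the median level, so the gap narrows there. These regions were shallow: 17 of the 181 had at least 20 reads over both libraries, and their median ratio was -0.27 against -0.07 for all regions of that depth, so the direction of the median turns. Of these 17, 4 were higher and 1 was lower, where 13.3% and 10.9% of all regions of that depth were. The direction of a call also followed the library whose peak lists the region: all 16 higher regions had a peak in siHK1 alone and all 8 lower ones in TGF alone. Peaks in siHK1 alone listed 98 members and peaks in TGF alone 73, while all SMAD3 regions divide into 27953 and 27665. Of the 98, 16.3% were higher, against 11% of all regions listed through siHK1 alone. None of the 9 members with both peaks was called, too few to set against the 2.26% lower and 4.70% higher of all such regions, and their median ratio was -0.26 against -0.04. At promoters, where 11% of all SMAD3 regions were higher, 4 of 21 member regions (19.0%) were.

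Ligands held 10 of the 16 higher SMAD3 regions, in 8 genes and out of 68 ligand regions, of which 3 were lower, beside 5.49% of all SMAD3 regions higher and 5.56% lower. At the promoter of Wnt1, the founding member of the family (chr15:98789027-98789864), SMAD3 reads were 11 and 21 (1.22, interval 0.19 to 2.51). Wnt10b, its neighbour on the chromosome, had 2 and 10 reads 2394 bases upstream (2.24, interval 0.39 to 5.85). Wnt7b had 3 higher regions, with 8 and 21 reads at 17554 bases upstream (1.63, interval 0.53 to 3.15), 3 and 12 at 28612 bases upstream (2.04, interval 0.42 to 4.78) and 0 and 6 at a promoter. Wnt7b was thus the member gene with the most higher SMAD3 calls. Wnt8b had 3 and 13 reads in a region classed as intronic 35714 bases upstream (2.15, interval 0.57 to 4.88), Wnt7a 2 and 9 (2.09, interval 0.18 to 5.71), and the Wnt5a promoter 0 and 5. Wnt11 went both ways over a short distance, with 9 and 1 reads at 6085 bases downstream (-2.36, interval -8.34 to -0.04) and 4 and 13 at 8383 bases (1.81, interval 0.33 to 4.10).

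The other higher SMAD3 regions lay at inhibitors, nuclear factors and Axin1. Sfrp1 had 3 and 15 reads at chr8:23511365-23511909 (2.35, interval 0.83 to 5.08), just beyond the Sfrp1 region where JUN was lower. Sfrp2 had 5 and 13 reads at 25677 bases upstream (1.54, interval 0.13 to 3.55). Both genes encode ligand-binding inhibitors. Lef1 had 4 and 16 reads at 158968 bases upstream (2.10, interval 0.70 to 4.38), Tcf7l1 6 and 16 in an intron (1.61, interval 0.33 to 3.40), Tcf7l2 0 and 5, and Axin1 0 and 9. At the receptors, 0 of the 50 SMAD3 regions were higher and 4 were lower, where 5.49% and 5.56% of all SMAD3 regions were, so these counts are small either way. Fzd7 had 3 of these, of 33 and 8 (-1.55, interval -2.97 to -0.50; 98.2% soft-masked), 9 and 0 and 7 and 0 reads, and Fzd1 had 10 and 1 (-2.50, interval -8.47 to -0.22). Summed per gene at equal totals, 10 of 40 member genes (25%) had an interval above no change against 14.4% of all genes, and 3 (7.50%) had one below, against 8.89%. Peaks in siHK1 alone listed 98 of the 181 member regions, which bears on the direction of these sums. Over regions with both peak marks, 8 member genes remained, of which 0 had an interval above no change (10.4% of all genes) and 1, Axin2, had one below (5.49%). That filter leaves out all 16 higher regions, so these counts are in part set by it. Over all regions, the genes above were Wnt1, Wnt5b, Wnt7b, Wnt8b, Wnt9a, Wnt10b, Fzd5, Sfrp1, Sfrp2 and Axin1, with median reads of 29.0 per member gene and 19.0 per gene in all. Wnt7b had 63 and 89 reads (0.99, interval 0.51 to 1.48) and Fzd5 13 and 24 (1.35, interval 0.35 to 2.48).

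NFATC2, a calcium-regulated factor, gave few calls at the family. Of 209 member regions, 6 (2.87%) were lower against 2.27% of all 68767 NFATC2 regions, and 7 (3.35%) were higher against 4.65%. The median ratio was 0.55 for the members and 0.36 for all regions, but 0.08 for both above the median level and -0.12 for the 8 members with a peak mark in both libraries, so its direction turns there. All 6 lower regions were listed through a peak in TGF alone and all 7 higher ones through siHK1 alone. By depth, 8 member regions had 20 reads or more, none of them called, where 6.35% of all regions of that depth were lower and 2.66% higher, shares at which 8 regions may well give no call. Lef1 had a lower region of 12 and 1 reads at 179339 bases upstream (-2.42, interval -8.34 to -0.16) and a higher one of 1 and 7 at 107437 bases upstream (2.84, interval 0.51 to 8.97). Wnt7a and Wnt7b had 1 and 7 reads each, in an intron and at 17431 bases upstream, with the same ratio and interval. The lower regions of Dkk2, Fzd1, Fzd9, Tcf7 and the Wnt10a promoter had between 8 and 12 reads in the TGF library and 0 in the siHK1 library.

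H3K9lc gave few calls at the family. Of 145 member regions, 4 (2.76%) were lower against 4.60% of all 74751 H3K9lc regions, and 6 (4.14%) were higher against 3.09%. The median ratio was -0.15 for the members and -0.19 for all regions, and 0.16 for the 38 members with a peak mark in both libraries. None of these 38 was called, where 0.322% of all such regions were lower and 0.367% higher. All 4 lower regions were listed through a peak in TGF alone and all 6 higher ones through siHK1 alone. The lower regions were 1 each at Fzd8 (12 and 0 reads), Lef1 (8 and 0), Tcf7l2 (13 and 1; -2.51, interval -8.42 to -0.27) and Wnt5b (12 and 1; -2.40, interval -8.31 to -0.14). None of these 4 lay above the median level, where 3.39% of all regions were lower, and 0 of the 82 members with at least 20 reads were lower, against 4.87% of all regions of that depth. Above the median level 2 of 71 members (2.82%) were higher against 1.14% of all, and with at least 20 reads 2 of 82 (2.44%) against 1.24%. They were at Wnt4, with 9 and 14 reads at 55357 bases upstream (1.25, interval 0.02 to 2.72), and Tcf7l1, with 8 and 14 at 31238 bases upstream (1.41, interval 0.15 to 2.96), in a region that is soft-masked throughout. Axin2, with 1195 and 729 reads over 17 regions, had a summed ratio of 0.10 at equal totals (interval -0.04 to 0.23), and 1 of its regions was higher, with 2 and 9 reads (2.50, interval 0.59 to 6.11).

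Against the NC library, H3K9lc was read from few control reads: the 121 member regions held 139 reads in NC and 3658 in TGF, or 2.44 and 64.3 reads per kb, beside 3.77 and 75.4 over all 65853 regions. The median ratio of TGF over NC was 1.17 for the members and 1.01 for all regions, and 0.07 and -0.08 with both libraries at equal totals. Of the members, 6 (4.96%) were higher in TGF against 3.22% of all, and 7 (5.79%) were lower against 7.62%. The lower calls rested on 1 to 5 reads in both libraries together. At equal totals the calls were 2 higher and 3 lower among the members, and 216 higher (0.328%) and 1592 lower (2.42%) among all regions, so the split of calls depends on the scaling. The 2 higher calls left were Tcf7l2 regions of 81 and 87 TGF reads.

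The 6 regions higher in TGF than in NC belonged to Axin2, Tcf7l2 and Fzd6, all of them distal. At Axin2, 56677 bases downstream (chr11:109000298-109001300), reads were 3 in NC and 127 in TGF (1.59, interval 0.17 to 4.04), and 76 in siHK1 beside 134 for TGF in the slightly wider region of that table. At equal totals its ratio was 0.86, below 2-fold. At 58566 bases downstream they were 0 in NC and 66 in TGF, and 64 beside 77 in the siHK1 table. At Tcf7l2, 3 regions had 0 reads in NC and 47, 81 and 87 in TGF, with 19, 28 and 41 in siHK1. Fzd6 had 9 and 329 reads at 30672 bases upstream (1.33, interval 0.44 to 2.52; 96.5% soft-masked) and 148 in siHK1, with a ratio of 0.79 at equal totals. None of the 6 was called in the comparison of siHK1 with TGF. The TGF library is the same in both tables, so the values are set side by side and not compared as independent results.

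Sites where all 4 antibodies list a region were few. Overlapping member regions formed 694 sites, of which 603 had 1 antibody, 68 had 2, 14 had 3 and 9 had 4. The 9 sites lay at 8 genes, Axin1, Axin2, Fzd6, Fzd7, Lrp5, Sfrp2, Tcf7l1 and Tcf7l2. They held 26.5% of the member reads of the TGF library for H3K9lc, 7.26% for JUN, 22.4% for SMAD3 and 41.1% for NFATC2. A single site at Axin2, described next, made up 16.2%, 3.38%, 11.2% and 31.5% of the member reads in that order. An H3K9lc member overlapped regions of all 3 factors in 9 of 145 cases (6.21%), against 2.18% of all H3K9lc regions. Taken factor by factor, 17 of the 145 (11.7%) overlapped JUN, 16 (11%) SMAD3 and 13 (8.97%) NFATC2, beside 5.92%, 6.50% and 6.58% of all H3K9lc regions. From the side of the factors the shares lay near those of the tables, with 5.90% of the JUN members overlapping H3K9lc against 6.07% of all JUN regions, 8.84% against 8.36% for SMAD3 and 6.22% against 7.24% for NFATC2. JUN and SMAD3 members met in 57 regions, 19.8% of the JUN and 31.5% of the SMAD3 members, where 18.1% and 23.0% of all regions did. JUN and NFATC2 members met in 34 regions, 11.8% of the JUN and 16.3% of the NFATC2 members against 15.4% and 16.7% of all, and SMAD3 and NFATC2 in 14.9% of the SMAD3 and 13.9% of the NFATC2 members against 14.3% and 12.3%.

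**Figure D4:**
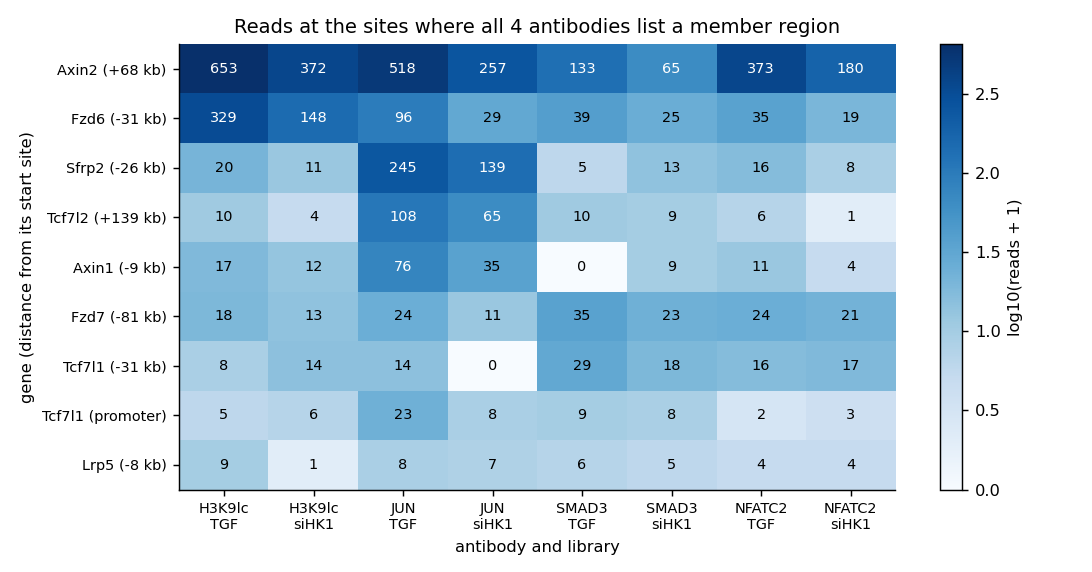
Reads at the 9 sites where all 4 antibodies list a member region (rows, gene and distance from its start site) in each library (columns), coloured by log10(reads + 1) with the reads written in. The Axin2 site has the most reads in every column, from 653 in the TGF H3K9lc library to 65 in the siHK1 SMAD3 library.

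The deepest of these sites, 68025 bases downstream of the Axin2 start site (chr11:109011646-109012199), is shown by its first 300 bases because it holds most of the Axin2 reads of each TGF library. The capitals are the letters of the NFAT site, GGAAA, on the reverse strand, the one match among the AP-1, TCF/LEF (CTTTGAT), SMAD (CAGAC) and NFAT letters.
Axin2, chr11:109011646-109011945: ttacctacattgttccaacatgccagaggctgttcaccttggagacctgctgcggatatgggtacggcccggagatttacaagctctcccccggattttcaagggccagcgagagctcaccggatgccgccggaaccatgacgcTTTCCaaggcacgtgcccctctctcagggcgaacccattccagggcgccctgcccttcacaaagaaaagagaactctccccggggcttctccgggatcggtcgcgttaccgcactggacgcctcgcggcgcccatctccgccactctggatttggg
From general knowledge these letters are those of the gene for the large ribosomal RNA, read on the opposite strand, a gene held in many copies; no ribosomal reference was aligned, and its part in the counts was not tested. In the TGF and siHK1 libraries the site had 653 and 372 H3K9lc reads, 518 and 257 JUN reads, 133 and 65 SMAD3 reads and 373 and 180 NFATC2 reads, and NC had 31. It was called with no antibody, with ratios of 0.05, -0.08, -0.47 and -0.21. It held 54.6%, 74.7%, 89.9% and 99.5% of the Axin2 reads of the TGF libraries in that order. Without it, Axin2 had 542 and 357 H3K9lc reads at equal totals (0.21, interval 0.01 to 0.40), 175 and 133 JUN reads (0.50, interval 0.16 to 0.83), 15 and 5 SMAD3 reads (-1.0, interval -2.90 to 0.44) and 2 and 3 NFATC2 reads. The JUN sum of Axin2 with the site was 693 and 390 (0.06, interval -0.12 to 0.24), so its ratio is the higher without the site.

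Repeats made up others of the shared sites, shown by part of their sequence with the first repeat unit of the Fzd7 site in capitals.
Fzd7, chr1:59400495-59400602: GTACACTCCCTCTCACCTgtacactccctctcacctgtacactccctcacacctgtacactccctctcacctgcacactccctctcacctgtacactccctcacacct
Tcf7l1, chr6:72820680-72820759: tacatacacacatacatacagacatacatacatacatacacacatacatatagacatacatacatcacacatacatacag
The Fzd7 site, 81150 bases upstream of the gene, is a tandem repeat of an 18-base unit and had 18 and 13 H3K9lc, 24 and 11 JUN, 35 and 23 SMAD3 and 24 and 21 NFATC2 reads. None of these was called. The Tcf7l1 site had 8 and 14 H3K9lc reads (higher), 14 and 0 JUN reads (lower), 29 and 18 SMAD3 and 16 and 17 NFATC2 reads, so its calls go in opposite directions. Sfrp2 had a site free of soft-masked bases with 245 and 139 JUN reads (0.08), 20 and 11 H3K9lc reads (-0.15) and the higher SMAD3 region of 5 and 13 reads.

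Among 82 member sites with a called region, 3 (3.66%) were called for more than 1 antibody, the Tcf7l1 repeat among them, against 2.06% of all called sites. Only 25 of the 82 had regions of more than 1 antibody, so that calls could meet there, and 3 of 25 compares with 7.70% of all such sites. At Tcf7l2, 193139 bases downstream (chr19:56091692-56092046), JUN went from 31 to 5 reads and H3K9lc from 13 to 1, both lower, with 1 H3K9lc read in NC and no soft-masked base. Upstream of Wnt7b, SMAD3 (8 and 21) and NFATC2 (1 and 7) were both higher inside the deepest JUN member region, which was not called. Of the 31 lower JUN regions, 7 (22.6%) overlapped a region of another antibody, against 26.4% of all JUN members, 21.2% of all lower JUN regions and 28.4% of all JUN regions. SMAD3 had regions at 4 of the 7 and was called at none, with 7 and 11 reads at Wnt4, 6 and 9 at Wnt7b, 4 and 2 at Tcf7l2 and 29 and 18 at Tcf7l1, so it went both ways.

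Promoters of 35 member genes held a region of at least 1 antibody, and those of 10 genes held regions of at least 3, namely Fzd5, Fzd8, Tcf7l1, Wnt1, Wnt2, Wnt5b, Wnt8b, Wnt9a, Wnt10a and Wnt11. In the tables of siHK1 against TGF, JUN was found at the promoters of 29 genes, SMAD3 of 18, NFATC2 of 13 and H3K9lc of 6. The table of TGF against NC lists H3K9lc at those of 5 genes, Wnt5a among them, which has none in the other table. The deepest JUN promoter regions were at Wnt10b (194 and 82 reads), Wnt2 (142 and 51), Wnt9a (77 and 23), Fzd5 (72 and 46) and Wnt1 (71 and 29), none of them called. At Wnt10a the antibodies differed, with JUN higher (1 and 11), NFATC2 lower (9 and 0), and H3K9lc reads of 9 and 4 and of 11 and 1 in 2 regions that were not called. H3K9lc at the Tcf7l1 and Wnt1 promoters was shallow, with 5 and 6 and 1 and 4 reads.

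Promoter sequences of RefSeq (GRCm38.p6, 300 bases around the start site) were matched for 30 of the 45 genes, 38 sequences in all. The Wnt1 promoter is shown because SMAD3 was higher over most of it, with the SMAD letters on either strand in capitals, the last of which lie beyond the end of the SMAD3 region, and the Wnt11 promoter as one of those with the TCF/LEF letters through which the pathway acts on its own targets.
Wnt1, chr15:98789607-98789906: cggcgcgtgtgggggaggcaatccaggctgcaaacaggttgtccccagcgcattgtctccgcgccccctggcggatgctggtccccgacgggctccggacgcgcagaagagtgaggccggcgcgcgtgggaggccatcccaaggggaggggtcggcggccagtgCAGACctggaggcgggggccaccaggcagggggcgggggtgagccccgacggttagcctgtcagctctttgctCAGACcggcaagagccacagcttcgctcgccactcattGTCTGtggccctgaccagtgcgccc
Wnt11, chr7:98834862-98835161: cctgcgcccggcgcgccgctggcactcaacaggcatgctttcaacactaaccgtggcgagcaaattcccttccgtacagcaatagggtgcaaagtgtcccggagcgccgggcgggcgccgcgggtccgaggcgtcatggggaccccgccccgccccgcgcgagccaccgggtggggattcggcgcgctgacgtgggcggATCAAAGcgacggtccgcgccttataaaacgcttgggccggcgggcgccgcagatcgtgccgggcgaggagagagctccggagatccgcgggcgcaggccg
The SMAD letters occurred in 52.6% of the member promoters and 49.6% of all promoters, the TCF/LEF letters in 5.26% (Wnt11 and Wnt5b) and 3.73%, the AP-1 letters in 2.63% (Wnt5b) and 7.81%, and the NFAT letters in 42.1% and 61.3%. In the regions themselves, the SMAD letters were in 42.0% of SMAD3 members and 38.1% of all SMAD3 regions, and the NFAT letters in 39.7% of NFATC2 members and 42.7% of all. The TCF/LEF letters were in 1.39% to 3.87% of the members of the 5 tables and in 2.07% to 2.90% of all regions. They went both ways, with 3.45% against 2.07% for H3K9lc in siHK1 and TGF and 1.39% against 2.44% for JUN. Some letters were rarer at the members than in the table, with the SMAD letters in 35.4% of JUN members against 44.4%, the NFAT letters in 29.7% of H3K9lc members against 40.9% and the AP-1 letters in 2.87% of NFATC2 members against 6.60%. Others were more frequent, with the AP-1 letters in 8.28% of H3K9lc members against 6.26% and 8.84% of SMAD3 members against 6.69%. The SMAD letters were in 42.6% of NFATC2 members against 37.9%. A match of letters is a description and not a binding site.

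The other genes of the pathway, a list of 60 that includes β-catenin (Ctnnb1), Apc, Gsk3b, the Dvl genes and the R-spondins, are given for comparison. For JUN, 55 of them had regions, and 35 of their 386 regions (9.07%) were lower and 7 (1.81%) higher, against 7.18% and 2.84% of all regions. For SMAD3, 11 of 262 (4.20%) were lower and 15 (5.73%) higher, against 5.56% and 5.49%. For NFATC2, 23 of 304 (7.57%) were higher and 3 (0.987%) lower, against 3.35% and 2.87% at the members and 4.65% and 2.27% of all. For H3K9lc, 13 of 223 (5.83%) were higher and 8 (3.59%) lower in siHK1, against 3.09% and 4.60% of all. In TGF against NC, 6 of 182 (3.30%) were higher and 16 (8.79%) lower, against 3.22% and 7.62%.

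**Figure D5:**
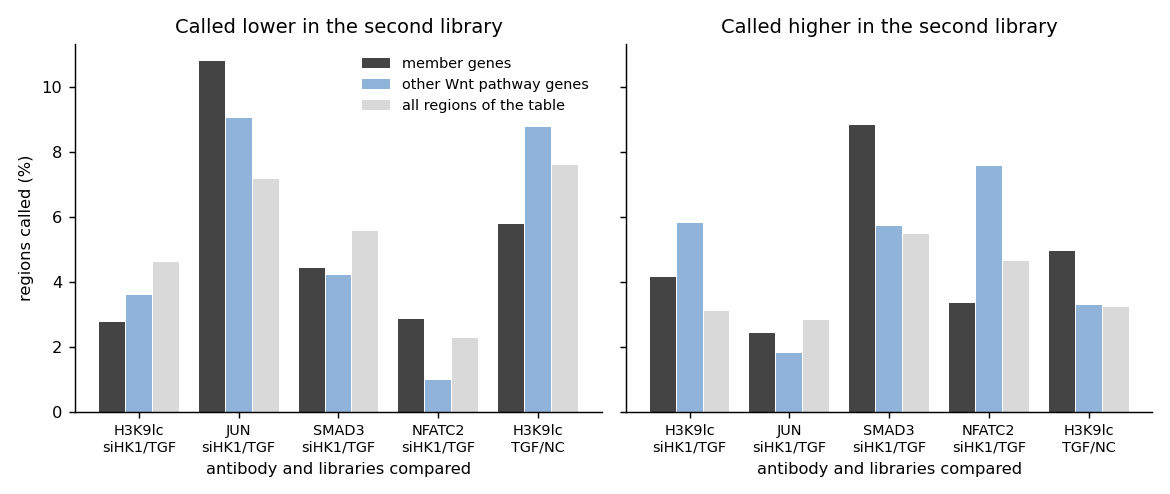
Percent of regions called lower (left) and higher (right) in the second library of each pair (vertical, from 0) for the member genes, the other Wnt pathway genes and all regions of the table, by antibody and libraries compared (horizontal); 1 library per condition, so no error bar is drawn. JUN lower calls reach 10.8% of member regions against 7.18% of all, and SMAD3 higher calls 8.84% against 5.49%.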

How the data were processed

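CUT&Tag was performed on 10 libraries of mouse primary cardiac fibroblasts, 1 per condition and antibody; 9 entered the comparisons. The remaining TGF library, for which no antibody is labelled, was not used, nor were 3 columns of a GFP library that belongs to no sample of the series. The deposited tables hold, per region, the read counts of each library as the authors obtained them, a 0 or 1 peak mark and a normalized log2 level. The level the authors deposited was a straight line in log2(count + 0.5), with slope 1 for the shallower library and 0.861 to 0.964 for the deeper one, so a change common to all regions cannot be seen. The tables' own fold changes, p-values and calls were not used. The study's methods name Bowtie2, MACS2 and GRCm39, whereas the submitters' processing notes name BWA 0.7.12 and mm10. Every region lay within its GRCm38 chromosome (0 regions beyond an end) and 81 of 81 member transcripts had the coordinates of GENCODE vM21, so coordinates are given on GRCm38, counted from 1.

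The log2 ratio was the difference of the deposited levels of the second and first library. Reads summed over the listed regions do not give the depth of a library. Gene sums used raw counts with both libraries at equal totals, and PCR copies are not independent molecules, so exact 95% intervals cover counting error alone. Letters of AP-1, TCF/LEF, SMAD and NFAT sites were searched on both strands of the central 200 bases of each region. Scripts ran in Python 3.11.15 with pandas 2.3.3, NumPy 2.4.6, SciPy 1.17.1 and matplotlib 3.10.9. The members, the list of 60 other pathway genes and the markers were chosen with earlier results of these data known. In each table the regions named by rule were up to 6 lower and 6 higher called regions above the median level, by size of ratio, and the deepest region of Axin2, Lef1, Tcf7, Tcf7l1, Tcf7l2, Sfrp1, Dkk3, Lrp6 and of genes with promoter regions of at least 3 antibodies. Other named regions were chosen after their values were seen. Alternatives covered scaling, pseudocount, level, reads, distance, peak marks, repeats, the call rule and the overlap rule.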

Additional observations from a re-analysis of the deposited data

How the results depend on the processing

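No paired analysis was possible because there was a single library for every antibody and condition, and none could be left out. Of 122 alternatives for the medians, counts of calls, gene sums and overlaps, 67 stayed within the limits set for a change (1.5 times for counts, the order-statistic interval for medians) and 55 moved. The sign of 4 of 35 medians turned: SMAD3, within its wide interval, to -0.27 with at least 20 reads and -0.26 with both peak marks, and H3K9lc and NFATC2 with both peak marks, as given next. Values are given for members, in the order H3K9lc, JUN, SMAD3 and NFATC2 (siHK1 against TGF) where not stated. Above the table's median level, lower calls numbered 0, 4, 4 and 1, H3K9lc, JUN and NFATC2 higher calls 2, 0 and 3, and the JUN and NFATC2 medians were -0.04 and 0.08. The NFATC2 lower and higher calls there were 1.02% and 3.06% of 98 members, against 2.04% and 3.31% of all. With a peak mark in both libraries, lower calls numbered 0, 2, 0 and 0, higher calls 0 for each of the 4, and the H3K9lc, JUN and NFATC2 medians were 0.16, -0.03 and -0.12. Summed over regions with both peak marks, chosen after seeing the data, genes below and above no change numbered 4 and 5 for JUN and 1 and 0 for SMAD3. By 2-fold alone, lower calls numbered 22 of 145, 56 of 288, 46 of 181 and 51 of 209 members. Among all regions they numbered 12252 of 74751, 10033 of 72990, 20975 of 58633 and 19658 of 68767. Higher calls by 2-fold alone numbered 18, 14, 64 and 88 among the members and 7889, 4131, 16098 and 25580 among all regions. Within 100 kb of the start site, H3K9lc had 1 lower call. With equal totals, JUN had 14 higher calls. With at least 20 reads, a limit chosen after seeing the data, lower calls numbered 0, 19, 1 and 0, higher calls 2, 3, 4 and 0, and the NFATC2 median was 0.21. Leaving out regions mostly of repeats, also chosen after seeing the data, kept counts within 1.5 times and medians within their intervals, with the SMAD3 median at 0.65. For TGF against NC, the median was 0.07 with equal totals, 0.47 with a pseudocount of 1, 0.46 above the median level and 0.80 with both peak marks. Lower calls there were 3 with equal totals and 12 by 2-fold alone. They were 0 above the median level (0.781% of all), 0 of 4 with both peak marks (3.03%) and 0 with 20 reads (0.129%). Higher calls were 2 with equal totals, 1 of 4 with both peak marks (1.90% of all such regions) and 66 by 2-fold alone. By 2-fold alone, all 65853 regions gave 7814 lower and 32968 higher calls, beside those of the 121 members. Of 152 alternatives for single regions, 4 fell outside the region's counting interval, where reads were summed per gene: -0.04 (Sfrp1) and -0.54 (Wnt11) for JUN, 0.03 (Wnt11) and 1.23 (Wnt8b) for SMAD3. The intervals of shallow regions are wide, and 25 of the 152 were of the other sign than the region, none of them a called region. The low counts of SMAD3 and NFATC2 limit what can be seen there. What caused these shifts was not tested, beyond the fewer regions that each filter leaves.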
